A study of Mus musculus with 44 samples.

Results

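The 7 libraries described here are YFP+ plasma cells sorted 5 days after tamoxifen, 3 from bone marrow and 4 from spleen, out of 44 libraries in the series. The libraries were picked by day, sort and organ, from their titles, although the comparison was chosen with earlier results of these data known. The animals carried the BEC-YFP genotype and were 24 weeks old when they received tamoxifen, and the cells were CD138high and B220-. Marrow came from mice 09-01, 07-26 and 09-29 and spleen from these mice and mouse 09-15, so that 3 mice gave both organs. The titles tell day-5 mice apart by a date, and libraries sharing a date are read as 1 mouse. Titles of day-90 mice also carry dates, 09-15 and 09-29 among them, beside a mouse code. A mouse term at day 5 is therefore also a date term, and mouse and date cannot be told apart. Every mouse of the series, whichever sort or day, carried this genotype and received tamoxifen, and the labels call the YFP+ sort LLPC (the series title speaks of long-lived plasma cells) and the YFP- sort Bulk PC. The promoter that drives the recombinase is not given in the sources used here. Used beside them are 6 YFP- libraries of the same 3 mice, and YFP+ libraries at day 90 from 4 mice treated at 24 weeks and from mice treated at 6 to 8 weeks of age. The question is whether newly marked plasma cells of bone marrow and spleen differ in their mRNA soon after marking.

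Plasma cells are the antibody-secreting end stage of B cells, and they are made mainly in spleen and lymph nodes. Some of them move to the bone marrow, drawn by CXCL12 through its receptor CXCR4, and can survive there for a long time on signals such as APRIL, which binds BCMA. Bone marrow and spleen therefore offer plasma cells different neighbours, cytokines and metabolites.

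Each of the 7 libraries held between 8567321 and 10161750 counts. Levels are CPM (counts scaled to a common library total) after scaling by the trimmed mean of M values (TMM), which corrects for a few very abundant mRNAs. Jchain, the joining chain of polymeric antibody, took 31.0 to 37.7% of counts in marrow and 26.0 to 33.0% in spleen. Libraries of the same mouse from different organs correlated at 0.958 to 0.967 over genes on a log CPM scale, and libraries of different mice from the same organ at 0.938 to 0.964. The spleen library of mouse 09-15 stood apart, at 0.899 to 0.934 with the others, and it has no marrow partner. Its erythroid marker genes summed to 476 CPM, against 7.64 to 12.6 CPM in the other 6 libraries. The defining genes of plasma cells were abundant in all 7, with Xbp1 at 10872 to 14986 CPM and Sdc1, which encodes CD138, at 321 to 909 CPM.

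Across all groups, marrow and spleen YFP+ cells of day 5 were hard to tell apart. In the fit of 43 libraries with 1 mean per group, 0 of 12457 genes (0%) passed an adjusted p of 0.05 by edgeR's quasi-likelihood test, and 298 (2.39%) had an unadjusted p under 0.05. A mouse term added to that fit left 0 genes past it and 283 (2.27%) under the unadjusted threshold, and limma voom also gave 0 with 229. DESeq2 called 8 genes, of which 6 (Nkg7, Lilr4b, Ms4a3, Elane, Car1 and Mpo, chosen here after their values were seen) stayed at or under 2.01 CPM in all 7 libraries. The others were Slc40a1 and Cox6a2. For Cox6a2 the log2 marrow minus spleen was -2.53 (DESeq2 adjusted p = 0.0104). Its unscaled CPM spanned 0.787 to 6.92 in marrow and 5.95 to 52.1 in spleen. When the 3 mice with both organs were compared within mouse, in a fit of their 6 libraries alone, 25 of 10200 genes (0.245%) passed. Of these, 11 (0.108%) were higher in marrow and 14 (0.137%) lower, and 621 genes (6.09%) had an unadjusted p under 0.05. All values below that are called past the threshold come from this paired fit, as log2 marrow minus spleen.

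The 25 calls rest on few libraries. Without mouse 09-01, 21 genes passed, 15 of them among the 25. Without mouse 07-26, 4 passed, all higher in marrow, including Cyp4f18, Slpi and Mt1. Without mouse 09-29, 4 passed, all lower in marrow, including Anxa2 and Ifi27l2a. In a fit of the same 6 libraries with no mouse term, and in one that added the 6 YFP- libraries of these mice, 0 of the 25 passed, while all 25 kept their direction. The marrow minus spleen differences of 1 mouse correlated with those of another at 0.036 to 0.060, across genes, which are not independent replicates.

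The genes with the lowest marrow levels relative to spleen included several that interferons induce. Interferons switch on guanylate-binding proteins and other GTPases of cell defence, many of them through GAS and ISRE elements in their promoters. Gbp4, a guanylate-binding protein, was at 61.7, 57.9 and 61.5 CPM in marrow and at 89.7, 109 and 104 CPM in spleen of mice 09-01, 07-26 and 09-29, and at 64.05 CPM in the spleen of mouse 09-15, just above every marrow library. Its difference was -0.74 (SE 0.13, adjusted p = 0.0069). Ifi27l2a, an interferon-inducible mitochondrial protein, was at 66.04, 62.7 and 68.9 CPM in marrow and at 138, 164 and 108 CPM in spleen, and mouse 09-15 had the highest level, 276 CPM. The groups did not overlap, and the difference was -1.04 (SE 0.14, adjusted p = 3.14e-04).

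Tgtp2, a GTPase of the family induced by interferon gamma, stood at 7.04, 7.15 and 4.91 CPM in marrow and at 21.5, 26.1 and 41.7 CPM in spleen, and at 40.05 CPM in the spleen of mouse 09-15. Every marrow library was below every spleen library, and the log2 difference was -2.17 (SE 0.27, adjusted p = 2.36e-04). Tgtp1 is a close copy of this gene, so the counting may have split reads between them. Serpina3f, a serine protease inhibitor of a mouse gene cluster with several close copies, was at 32.8, 19.1 and 81.3 CPM in marrow and at 58.4, 42.04 and 304 CPM in spleen, with mouse 09-15 at 160.4 CPM. Mouse 09-29 was higher than the others in both organs, so the groups overlap while each mouse alone shows marrow below spleen, with a difference of -1.32 (SE 0.17, adjusted p = 6.49e-04).

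The upstream bases of these latter genes are shown because they hold the letters of interferon response elements. Of the 25 genes, 15 matched the RefSeq promoter table (GRCm38.p6), and Gbp4 and Ifi27l2a did not. The 250 bases before the annotated start were searched on both strands for GAS (TTCNNNGAA) and ISRE (GAAANNGAAA), where the matched letters are in capitals. The window of Tgtp2 is chr11:49064213-49064462 on the minus strand, and that of Serpina3f is chr12:104214294-104214543 on the plus strand, both written 5′ to 3′.
Tgtp2: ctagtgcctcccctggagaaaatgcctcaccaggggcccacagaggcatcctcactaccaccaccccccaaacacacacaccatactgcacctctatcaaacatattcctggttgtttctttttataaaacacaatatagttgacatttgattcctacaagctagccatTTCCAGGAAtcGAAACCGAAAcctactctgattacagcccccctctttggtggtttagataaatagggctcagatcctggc
Serpina3f: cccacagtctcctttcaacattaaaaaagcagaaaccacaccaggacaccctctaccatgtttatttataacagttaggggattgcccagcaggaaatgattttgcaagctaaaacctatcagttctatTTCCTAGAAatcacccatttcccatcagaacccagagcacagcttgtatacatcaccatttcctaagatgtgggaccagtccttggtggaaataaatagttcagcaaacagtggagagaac
In Tgtp2 a GAS match begins 81 bases before the start and an ISRE match 70 bases before it, with no overlap. For 11 of the 15 genes the bases after the annotated start were found in a transcript of the gene, and Tgtp2 was not among these 11, so its distances rest on the RefSeq start alone. In Serpina3f a GAS match begins 121 bases before the annotated start that ends this window, and a further annotated start of the gene lies downstream. The windows of the other 13 genes held neither. Among 9484 tested genes with a window, 6.22% held a GAS match, 2.89% an ISRE match and 0.401% both. These matches are letters only, and no binding was measured.

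The wider interferon list lay mostly below 0, with exceptions. Of 28 interferon genes tested in the paired fit, 3 passed lower, Gbp4 and Ifi27l2a among them, and 0 higher, and 25 of 28 lay below 0, with a median of -0.34 against -0.01 over all genes, of which 49.0% lay above 0. In the fit of all groups, 31 of 36 lay below 0 with a median of -0.42, and 0 passed. Samhd1, a nucleotide hydrolase that limits viral replication, was at 359, 397 and 364 CPM in marrow and at 427, 576 and 442 CPM in spleen, with a difference of -0.36 (SE 0.10, adjusted p = 0.258). Gbp2 had a difference of -0.96 (SE 0.34, adjusted p = 0.505) and Gbp3 of -0.59 (SE 0.25, adjusted p = 0.72). Irf1, a transcription factor induced by interferon, had -0.09 (95% interval -0.33 to 0.15), and Ifit1, an RNA-binding antiviral protein, was on the other side, at 1.37 (SE 0.60, adjusted p = 0.748). H2-Q7, a non-classical class I molecule of the Qa-2 family whose members share sequence, was at 121, 87.9 and 216 CPM in marrow and at 227, 165 and 271 CPM in spleen, a difference of -0.71 (SE 0.12, adjusted p = 0.0069). Mouse 09-29 was highest in marrow and close to the spleen libraries of the other mice.

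**Figure D1:**
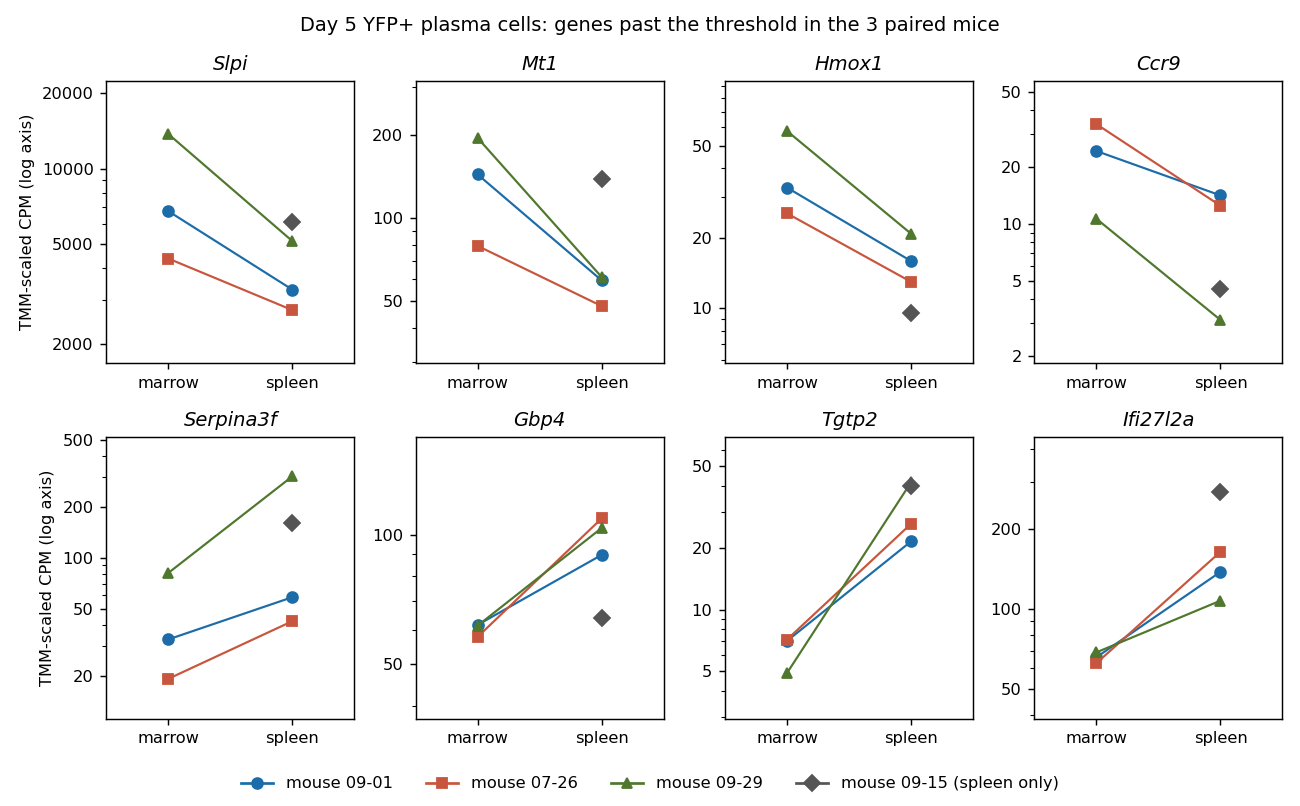
TMM-scaled CPM on a log axis in marrow and spleen YFP+ cells at day 5 for 8 genes past the threshold in the paired fit. Lines join the libraries of 1 mouse and the grey diamond is the spleen of mouse 09-15; in each panel the 3 lines slope the same way, while for Mt1 the diamond, at 139, lies among the marrow values.

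Among the genes higher in marrow were those of a protease inhibitor and a metallothionein. Slpi, the secretory leukocyte protease inhibitor, was at 6762, 4377 and 13725 CPM in marrow and at 3292, 2728 and 5139 CPM in spleen of mice 09-01, 07-26 and 09-29. Its difference was 1.04 (SE 0.12, adjusted p = 1.29e-04), and the spleen of mouse 09-15, at 6137 CPM, fell among the marrow libraries. Mt1, a metallothionein that binds zinc and copper, was at 144, 79.3 and 195 CPM in marrow and at 59.5, 48.01 and 61.2 CPM in spleen, with 139 CPM in mouse 09-15. That library was again inside the marrow range, and the paired difference was 1.23 (SE 0.15, adjusted p = 2.81e-04). Mt2, its neighbour and partner, had a difference of 0.94 (SE 0.27, adjusted p = 0.291). Mt1 was the gene past the threshold in a list of 12 tested genes that glucocorticoids induce, whose median was 0.19, with 8 above 0.

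Hmox1, the haem oxygenase that breaks haem down to biliverdin and iron, was at 32.97, 25.5 and 57.8 CPM in marrow and at 15.9, 12.96 and 20.9 CPM in spleen. The spleen of mouse 09-15 was lowest, at 9.51 CPM, so every marrow library was above every spleen library, and the difference was 1.17 (SE 0.19, adjusted p = 0.00388). Cyp4f18, a cytochrome P450 that oxidises leukotriene B4, was at 238, 89.4 and 425 CPM in marrow and at 103, 49.7 and 217 CPM in spleen, with a difference of 1.01 (SE 0.11, adjusted p = 1.18e-04). Its level varied more between mice than between organs, and the 43-library fit gave 0.87 (SE 0.47, unadjusted p = 0.0703).

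Slc40a1, the iron exporter ferroportin, had 0 counts in all 3 marrow libraries and 11 to 150 counts in the 4 spleen libraries. Against a floor of 3 counts per library it was at least 18.9-fold lower in marrow (19.9-fold over the 3 paired mice). Without the spleen of mouse 09-29, at 15.6 CPM, the bound was 9.23-fold (5.85-fold over the other paired mice). Ferroportin is known from macrophages that recycle red cells, and the markers of those cells moved with it: Spic, their transcription factor, was at 0.201, 0 and 0 CPM in marrow and at 1.23, 0.338 and 9.76 CPM in spleen, with 3.54 CPM in mouse 09-15. C1qb, a complement subunit of macrophages, was at 0.201, 0.210 and 0 CPM in marrow and at 0.514, 1.35 and 30.3 CPM in spleen, with 9.96 CPM in mouse 09-15. The 17 markers of monocytes and macrophages summed to 47.4 to 191 CPM in marrow and 43.4 to 286 CPM in spleen, with 11, 11 and 8 of them at 0 in marrow and 8, 9, 3 and 2 at 0 in spleen. The part of such cells in the Slc40a1 result was not tested. In sorted bulk samples, fewer cells of a type and less RNA per cell cannot be told apart. Of the 17 genes of iron and haem handling tested, Hmox1 and Slc40a1 passed, and the ferritin light chain Ftl1 was at 0.29 (SE 0.11, adjusted p = 0.577).

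Cd68, a lysosomal glycoprotein best known from macrophages, was higher in marrow, at 49.8, 34.9 and 106 CPM in marrow and at 30.6, 23.3 and 52.3 CPM in spleen and 109 CPM in mouse 09-15, with a difference of 0.77 (SE 0.15, adjusted p = 0.0257). Cd68 is itself 1 of the 17 macrophage markers. The other 16 summed to 6.33, 12.5 and 85.0 CPM in marrow and 18.8, 20.1 and 233 CPM in spleen of the same mice, lower in marrow in each, and to 86.2 CPM in mouse 09-15. The 17 neutrophil markers summed to 2.81, 3.05 and 116 CPM in marrow and 0.822, 1.47, 6.44 and 1.99 CPM in spleen (mouse 09-15 last). Ngp, a granule protein of neutrophils, led the high library, marrow of mouse 09-29, with 47.3 CPM, and was at or under 0.442 CPM in the other 6. Mouse 09-29 also had the highest marrow levels of Slpi, Mt1, Hmox1, Cyp4f18 and Cd68. Without that mouse the paired differences were 0.85 for Slpi, 1.00 for Mt1 and 1.03 for Cyp4f18, none past the threshold, and the part of neutrophil RNA in these results was not tested. T cell markers summed to 7.36 to 22.2 CPM over the 7 libraries and NK cell markers to 13.6 to 67.1 CPM.

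**Figure D2:**
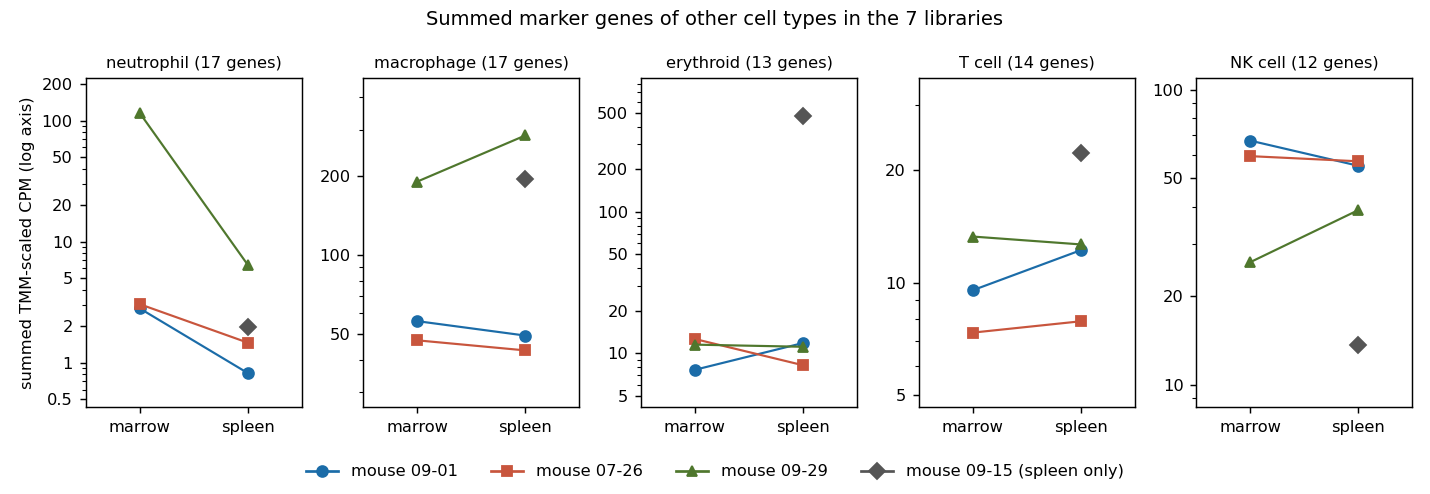
Summed TMM-scaled CPM, on a log axis, of marker genes of 5 other cell types in marrow and spleen YFP+ libraries at day 5. Lines join the libraries of 1 mouse; neutrophil markers reach 116 CPM in the marrow of mouse 09-29 and erythroid markers 476 CPM in the spleen of mouse 09-15 (grey diamond).

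The homing list held 1 gene past the threshold. Ccr9, the receptor for the gut and thymus chemokine CCL25, was at 24.3, 33.7 and 10.7 CPM in marrow and at 14.2, 12.5 and 3.12 CPM in spleen, with 4.54 CPM in mouse 09-15. Each mouse had more in marrow, though the marrow of mouse 09-29 lay below the spleens of mice 09-01 and 07-26, and the difference was 1.28 (SE 0.25, adjusted p = 0.0255). Plasmacytoid dendritic cells also express Ccr9, and the 11 markers listed for them, Ccr9 among them, summed to 2118 to 3169 CPM in marrow and 2052 to 4687 CPM in spleen, with 2 to 4 of them at 0 in each library. Siglech, the most specific of these, was at or under 1.32 CPM, while Cox6a2, also listed, was lower in marrow in each of the 3 mice. Of the 7 listed markers tested in the paired fit, 3 lay above and 4 below 0. The part of such cells in the Ccr9 result was not tested. Of the 15 homing receptors tested, 5 lay above and 10 below 0, and the median was -0.08. Cxcr4 was at 12.9, 4.41 and 26.2 CPM in marrow and at 8.94, 8.90 and 31.8 CPM in spleen, without a common direction among mice, and its difference was -0.23 (95% interval -0.78 to 0.33). Cxcr3, a receptor for interferon-induced chemokines, was at 56.7, 44.03 and 76.5 CPM in marrow and at 44.3, 45.9 and 44.4 CPM in spleen. Its difference was 0.36 (95% interval 0.03 to 0.69), with an adjusted p of 0.767, and mouse 07-26 went the other way. The lowest library for Cxcr3 was the spleen of mouse 09-15, at 17.4 CPM. Ccr10, a receptor of IgA plasma cells, spanned 55.3 to 349 CPM with the organs interleaved, and had 0.26 (95% interval -0.33 to 0.86). S1pr1, the receptor for lymphocyte exit, had -0.90 (95% interval -1.79 to -0.01), with an adjusted p of 0.809, and its activator Klf2 had -0.53 (95% interval -0.94 to -0.12), with an adjusted p of 0.58.

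Adhesion genes gave 1 call among 28 tested. Anxa2, an annexin that binds membrane phospholipids with its partner S100A10, was at 44.8, 59.7 and 21.9 CPM in marrow and at 115, 175 and 37.1 CPM in spleen, so that mouse 09-29 was low in both organs. The spleen of mouse 09-15 was lowest of the 7, at 18.6 CPM, and the paired difference was -1.26 (SE 0.15, adjusted p = 1.29e-04). S100a10 had -0.23 (95% interval -0.53 to 0.07). The integrin chains Itga4, Itgb1 and Itgb7, which bind VCAM1, fibronectin and MAdCAM1, had 0.13 (95% interval -0.23 to 0.50), 0.02 (95% interval -0.29 to 0.33) and -0.02 (95% interval -0.64 to 0.59). Lgals3, the galectin that binds cell-surface sugars, was low throughout, at 1.41, 3.15 and 3.24 CPM in marrow and at 5.14, 15.1 and 8.62 CPM in spleen, and had a difference of -1.85 (SE 0.38, adjusted p = 0.041). With the spleen of mouse 09-15 included, the organs overlapped. The fit of all groups gave -1.61 with that library and -1.89 without it, neither past the threshold. Adgre5, the adhesion receptor CD97, had a difference of -0.63 (SE 0.13, adjusted p = 0.0305), and the spleen of mouse 09-15, at 52.4 CPM, was below all marrow libraries.

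Receptors of survival signals did not pass. Tnfrsf17, which encodes BCMA, was at 411, 492 and 379 CPM in marrow and at 445, 532 and 348 CPM in spleen, a difference of -0.04 (95% interval -0.25 to 0.17). Tnfrsf13b, which encodes TACI, had 0.18 (95% interval -0.02 to 0.38), Cd28, a co-stimulatory receptor, 0.10 (95% interval -0.10 to 0.31), and Cd93, a receptor needed to keep plasma cells in marrow, 0.31 (95% interval 0.03 to 0.60) with an adjusted p of 0.735. Cd38 had -0.32 (95% interval -0.68 to 0.04). In all, 0 of 17 tested survival genes passed, with a median of 0.10. Among 29 surface molecules Ly6a, which encodes Sca-1, was higher in marrow, at 4747, 3110.2 and 6494 CPM in marrow and at 3293, 2509 and 4157 CPM in spleen, by 0.49 (SE 0.10, adjusted p = 0.0305); mouse 09-15, at 6247 CPM, was again as high as marrow.

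**Figure D3:**
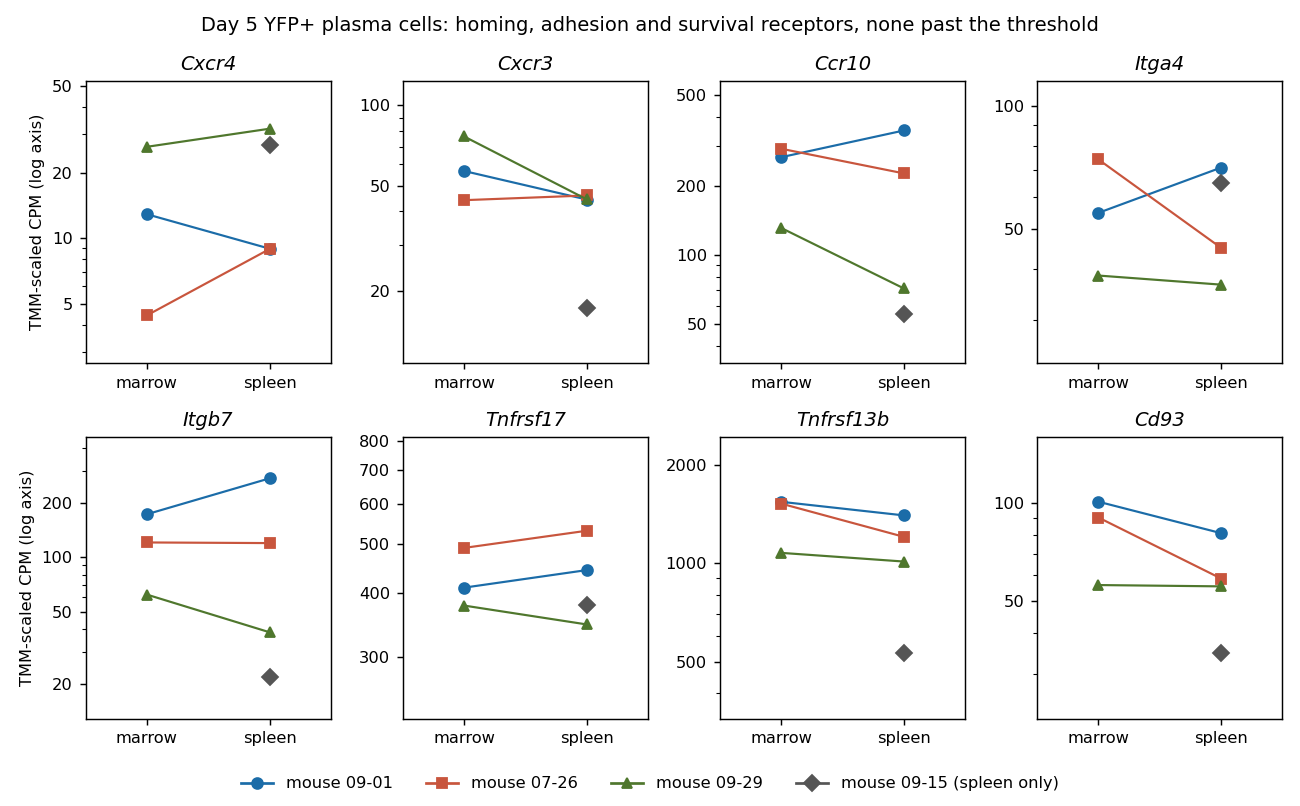
TMM-scaled CPM on a log axis of 8 homing, adhesion and survival receptors, none past the threshold, in marrow and spleen YFP+ cells at day 5. Lines join the libraries of 1 mouse and the grey diamond is the spleen of mouse 09-15; the lines of Cxcr4 slope both ways and those of Tnfrsf17 stay nearly level, within 348 to 532 CPM.

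Mitochondrially encoded mRNAs had the highest list median in the paired fit, though not in the fit of all groups. All 12 tested in the paired fit lay above 0, with a median of 0.45, where 49.0% of all genes lay above 0. Against 6.09% of all genes, 9 of the 12 had an unadjusted p under 0.05. Of these, mt-Nd1, a subunit of complex I, passed, at 638, 411 and 533 CPM in marrow and at 314, 300.5 and 411 CPM in spleen and a difference of 0.61 (SE 0.12, adjusted p = 0.0255). mt-Co1, the core subunit of complex IV, missed it, at 0.46 (SE 0.10, adjusted p = 0.0592). The spleen of mouse 09-15 had more than 2 of the 3 marrow libraries for mt-Nd1 (635 CPM), and in the fit of all groups the median was 0.12, with 9 above and 3 below 0. The 42 nuclear genes of oxidative phosphorylation had a median of -0.09 with 0 past the threshold, and in the fit of all groups -0.27. Mitochondrially encoded mRNAs made up 0.78 to 1.03% of counts in marrow and 0.61 to 1.21% in spleen, and the part of RNA quality in this was not tested.

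Immediate early genes, which cells switch on within minutes of stimulation or tissue dissociation, lay mostly lower in marrow. In the paired fit 17 of 20 were below 0 with a median of -0.30, where 49.0% of all genes lay above 0. An unadjusted p under 0.05 was found for 10 of the 20, all lower, and for 6.09% of all genes. Ier2 passed, at 106, 144 and 63.5 CPM in marrow and at 141, 192 and 139 CPM in spleen and a difference of -0.65 (SE 0.13, adjusted p = 0.041). The AP-1 subunits Jun and Jund missed it, at -0.58 (SE 0.13, adjusted p = 0.0592) and -0.60 (SE 0.13, adjusted p = 0.0592), and Fos was at -0.26 (SE 0.10, adjusted p = 0.58). Fos stood at 637, 807 and 139.6 CPM in marrow and at 714, 989 and 173 CPM in spleen, so mice differed by more than organs. The part of cell handling was not tested. Rbm3, a cold-inducible RNA-binding protein, was higher in marrow, at 215, 246 and 183 CPM in marrow and at 132, 152 and 129.8 CPM in spleen, and mouse 09-15 at 158 CPM did not overlap with marrow. Its difference was 0.63 (SE 0.11, adjusted p = 0.0069), and Cirbp, its close relative, missed the threshold at 0.61 (SE 0.14, adjusted p = 0.0888).

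Programmes of identity and secretion gave no call. Among 20 plasma cell identity genes, 0 passed, with differences of -0.09 (95% interval -0.34 to 0.15) for Prdm1, 0.07 (95% interval -0.18 to 0.32) for Irf4 and -0.02 (95% interval -0.21 to 0.17) for Xbp1, the transcription factors that make and keep a plasma cell. Jchain, at 0.37 (SE 0.10, adjusted p = 0.239), was higher in marrow in all 3 mice. Its TMM-scaled level was above every spleen library in all marrow libraries, while its unscaled share of counts overlapped between the organs. Secretion genes of the endoplasmic reticulum lay slightly below 0 in 27 of 36, with a median of -0.12 and 0 past the threshold. Over all genes 49.0% lay above 0. Hspa5, the chaperone BiP, had -0.22 (95% interval -0.41 to -0.02), with an adjusted p of 0.729. Calr, calreticulin, had -0.29 (95% interval -0.50 to -0.07) and did not pass either. Of 30 proliferation genes 0 passed, with a median of -0.02, and Mki67 had -0.15 (95% interval -0.62 to 0.32). The lists for B cell and antigen presentation (19 genes), stress response (19), apoptosis (21), glycolysis (19), hypoxia (15), autophagy (26), heat shock (16), NF-kB (21), ribosomal proteins (49) and cholesterol synthesis (24) also had 0 past the threshold, with medians between -0.17 and 0.09. Ribosomal proteins had a median of -0.03 in the paired fit and -0.35 in the fit of all groups, which includes mouse 09-15.

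**Figure D4:**
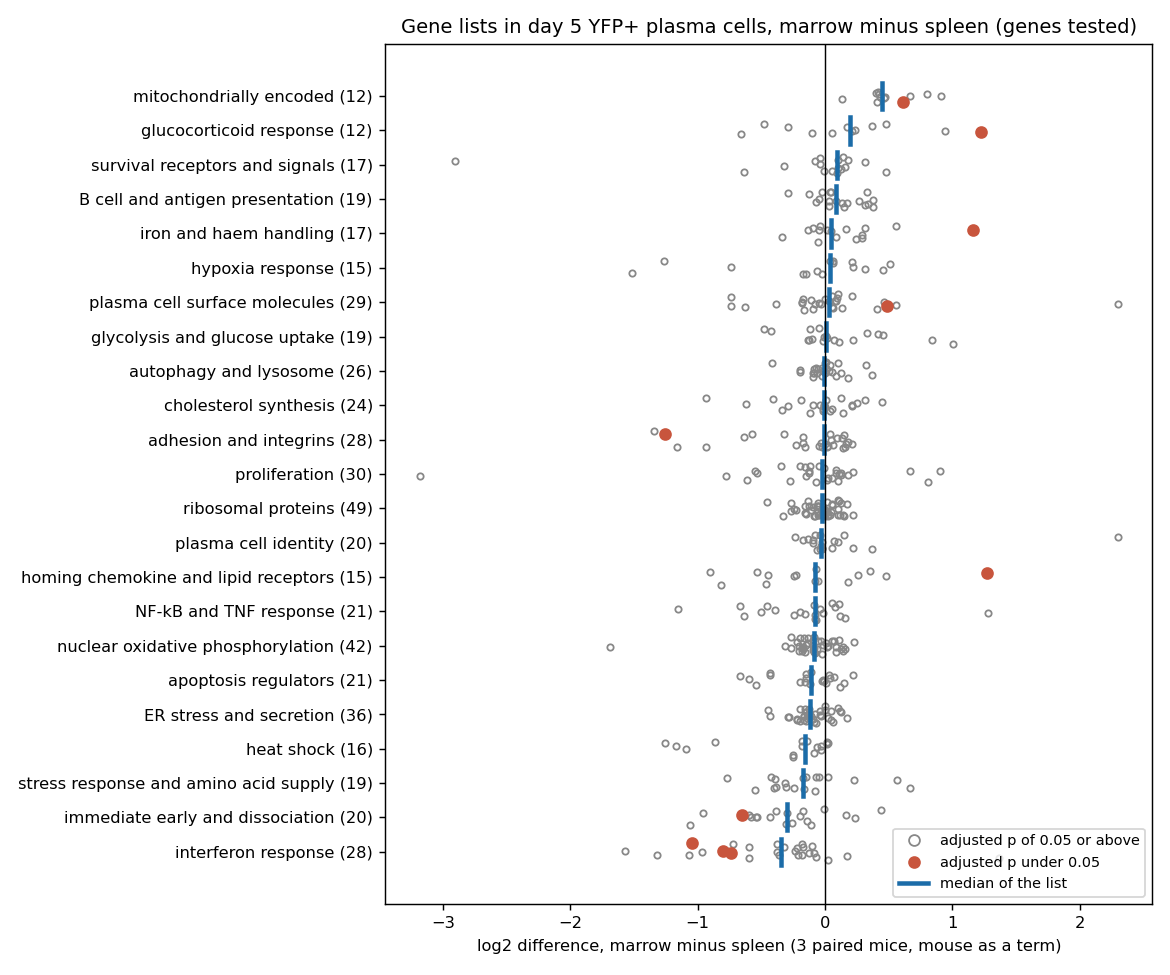
Log2 difference of marrow minus spleen in the paired fit for the tested genes of 23 lists; each point is a gene, red where its adjusted p is under 0.05, and the blue bar is the median of the list. In this fit mitochondrially encoded genes have the highest median (0.45) and interferon genes the lowest (-0.34); Slc40a1, with 0 counts in marrow, is not drawn.

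The remaining calls belong to no common group, and Spag6, Rbm3, H2-Q7, Hepacam2, Myadm, Adgre5 and Lgals3 are named because they passed, after their values were seen. Spag6, a protein of the axoneme with a close copy in the genome, was at 21.2, 9.35 and 25.5 CPM in marrow and at 6.27, 2.25 and 11.01 CPM in spleen, with a difference of 1.62 (SE 0.27, adjusted p = 0.0069). Gcsam, a regulator of signalling and motility in germinal centre B cells, was at 27.1, 43.6 and 4.91 CPM in marrow and at 10.6, 21.98 and 2.80 CPM in spleen, with mouse 09-29 low in both organs, and had 1.08 (SE 0.23, adjusted p = 0.0459). Nucb2, a calcium-binding protein, was at 8.34, 5.99 and 36.2 CPM in marrow and at 16.5, 17.8 and 57.02 CPM in spleen, and the spleen of mouse 09-15 was far above, at 173 CPM. Its paired difference was -1.04 (SE 0.21, adjusted p = 0.0357) and its difference in the fit of all groups -1.98 (SE 0.65, unadjusted p = 0.00454). Hepacam2, an immunoglobulin superfamily member, was at -0.74 (SE 0.14, adjusted p = 0.0213) and Myadm, a membrane protein of several haematopoietic lineages, at -0.65 (SE 0.13, adjusted p = 0.0305). Of all 25, Hmox1 and Rbm3 were above and Gbp4, Ifi27l2a, Tgtp2 and Slc40a1 below in every marrow library against every spleen library, mouse 09-15 included. That pattern held for 217 (1.74%) and 235 (1.89%) of all tested genes, and since the 25 were chosen on these libraries nothing is read from it.

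The YFP- plasma cells of the same mice allow a check in other libraries, though from the same animals. In 3 paired mice, 20 of 10664 genes (0.188%) passed there, all lower in marrow. Of the 25 genes, 2 (8%) passed in both, or 50% of the 4 called in YFP- cells and tested in both, namely Lgals3 at -2.91 (adjusted p = 0.0197) and Slc40a1, and 18 of 25 had the same sign, where 50.5% of all genes did. Cyp4f18 was at 1.56 (adjusted p = 0.173) in YFP- cells, Slpi at 0.95 (adjusted p = 0.445) and Ifi27l2a at -2.19 (adjusted p = 0.201). Gbp4 was at 0.33 (adjusted p = 0.644). Serpina3f, Tgtp2 and Hmox1 had no common direction among the mice in YFP- cells. In mice 09-01, 07-26 and 09-29 Serpina3f differed by 0.53, 2.23 and -0.70 on the log2 scale of CPM plus 1. For Tgtp2 these values were 0.15, -0.05 and -2.05, and for Hmox1 2.30, -2.36 and 1.90. In the fit of all groups the organ comparison of YFP- cells had 1 call (0.00803%, lower in marrow). Without the YFP- spleen library of mouse 09-29 it had 1983. The part of that library in the directions of these 3 genes was not tested. The difference between the organ effects of YFP+ and YFP- cells was tested directly. It gave 0 of 12457 genes (0%) in the fit of all groups, with 453 (3.64%) at an unadjusted p under 0.05, and 0 of 11147 (0%) in the 12 paired libraries, with 975 (8.75%). With mouse as a block over all groups 1 gene (0.00803%) passed, Prss34, with 1198 (9.62%) unadjusted. Leaving the YFP- spleen library of mouse 09-29 out of the fit without a mouse term gave 29, all lower.

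Day 90 YFP+ cells come from other animals, with no library shared. In the 4 mice treated at 24 weeks, 56 of 10462 genes (0.535%) passed within mouse, 29 (0.277%) higher and 27 (0.258%) lower in marrow, and 831 (7.94%) had an unadjusted p under 0.05. The fit of all groups gave 2 (0.0161%), both lower, with 682 (5.47%) unadjusted. Among genes tested at both times, 5 passed in both, which is 20% of the 25 at day 5 and 11.6% of 43 at day 90, and all 5 kept their direction. They are Slpi at 1.44 (adjusted p = 2.72e-04), Gcsam at 2.16 (adjusted p = 0.0176), Cyp4f18 at 0.86 (adjusted p = 0.0344), Nucb2 at -1.90 (adjusted p = 0.0174) and H2-Q7 at -1.11 (adjusted p = 0.00776). In all, 23 of 25 had the same sign, where 54.1% of all genes did. The exceptions were Anxa2, at 1.67 (adjusted p = 0.432), and Lgals3, at 1.40 (adjusted p = 0.486). Their differences between days were -2.92 (adjusted p = 1) and -3.25 (adjusted p = 0.674), not past the threshold. Tests of day 5 against day 90 gave 0 genes (0%) in the fit of all groups, with 275 (2.21%) at an unadjusted p under 0.05, and 0 (0%) of 11279 in 14 paired libraries, with 483 (4.28%).

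In the 3 mice treated at 6 to 8 weeks and sampled at day 90, 125 of 10655 genes (1.17%) passed within mouse, and 13 of the 25 (52%) were among them, or 12.6% of 103 tested at both times, all in the same direction. They include Tgtp2 at -2.74 (adjusted p = 9.85e-07), Slpi at 1.73 (adjusted p = 1.06e-06), Serpina3f at -1.32 (adjusted p = 9.09e-05), Ifi27l2a at -0.77 (adjusted p = 0.0325) and Ccr9 at 1.15 (adjusted p = 0.0182). Slpi, Gcsam, H2-Q7 and Nucb2 passed in all 3 YFP+ comparisons. Hmox1, at -1.31 (adjusted p = 0.568), Cyp4f18, at -0.29 (adjusted p = 0.371), and Cd68, at -0.01 (adjusted p = 0.989), lay on the other side of 0 there. The interferon list had a median of -0.32 at day 90 in 24-week mice and -0.21 in young mice, and that of mitochondrially encoded genes 0.19 and 0.55. In YFP- cells of the day-5 mice the medians were -0.09 and -0.50, so the mitochondrially encoded genes lay on the other side of 0 there. Ccr10, whose interval at day 5 spans 0, was at 1.37 (adjusted p = 0.00432) and 1.31 (adjusted p = 0.00209) at day 90. Day 5 and day 90 in young mice differ in age as well as in time, which cannot be told apart.

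**Figure D5:**
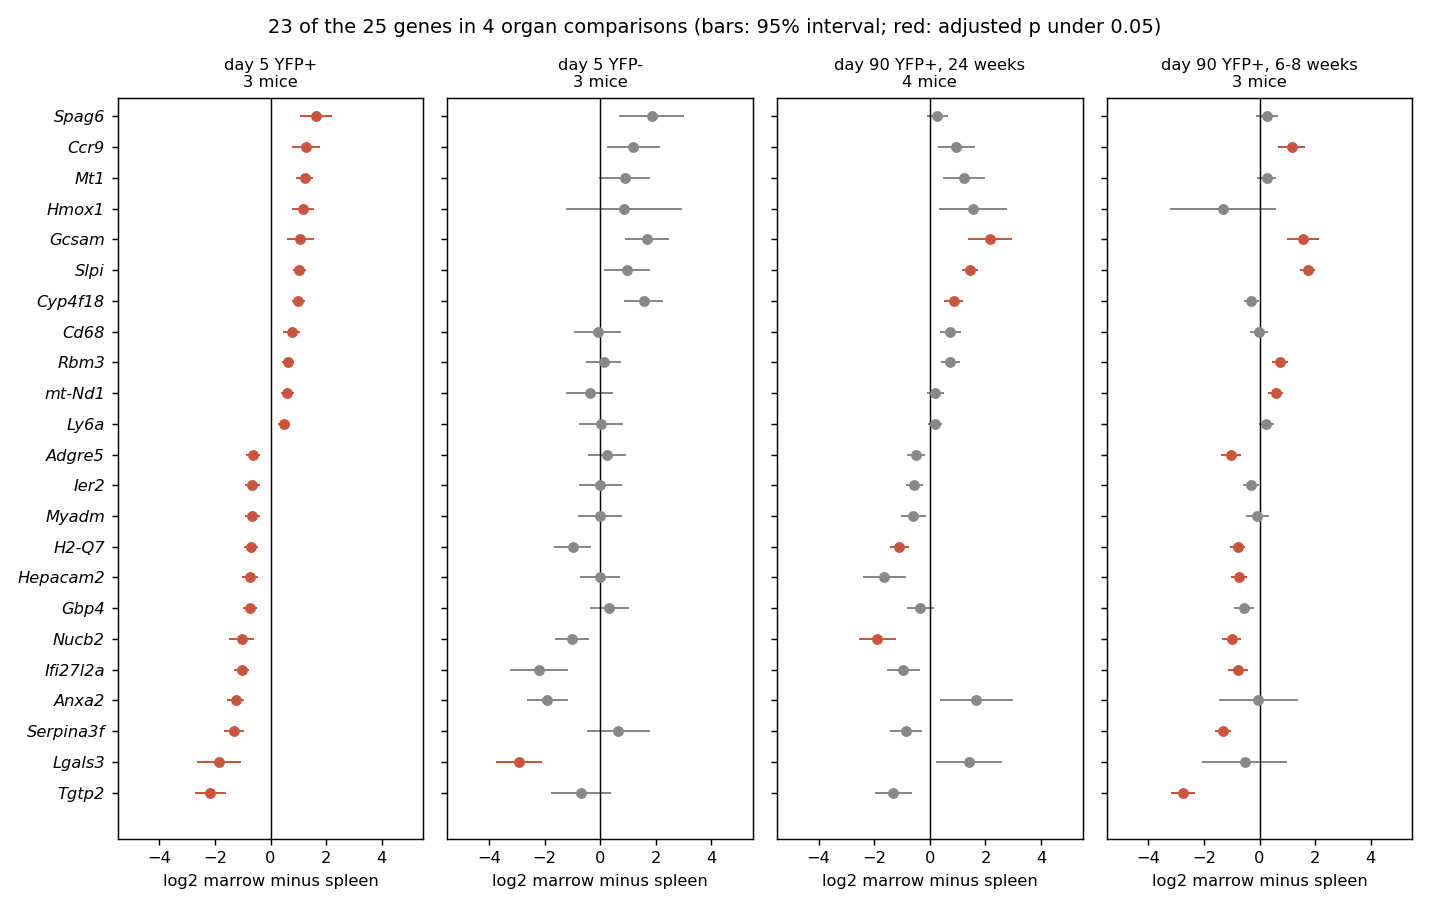
Log2 difference of marrow minus spleen with its 95% interval for 23 of the 25 genes in day 5 YFP+, day 5 YFP-, day 90 YFP+ at 24 weeks and day 90 YFP+ at 6 to 8 weeks, red where the adjusted p is under 0.05. The first column is red throughout by the choice of genes; Slpi, Gcsam, H2-Q7 and Nucb2 are also red in both day 90 columns.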

How the data were processed

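cDNA of sorted plasma cells was made with SMART-Seq v4 and turned into Nextera XT libraries, per the labels' protocols. The authors deposited unscaled expected counts for each gene, from which nearly all immunoglobulin genes are missing. Tools listed in the submitters' processing notes are RSEM 1.3.1, STAR 2.6.1b and DESeq2 1.26.0, with the builds GRCm38 and GRCm39 and no role for either. Of the deposited values, 3.10% are not whole, and all were rounded. Ambiguous reads in such estimates can be divided between near-identical genes.

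Of 44 libraries, 43 fell into 12 groups; 1 day-5 marrow library of mouse 09-15 has a title and a cell type that contradict each other and was left out. Genes passing edgeR's filterByExpr (minimum count 10) entered the quasi-likelihood test of edgeR 4.0.16 (R 4.3.3) after TMM scaling, with Benjamini-Hochberg adjustment over all genes tested, at 0.05. The main fit had 1 mean per group and no mouse term. A second fit used the 6 libraries of the 3 mice that gave both organs, with mouse as a term; it was planned as an alternative, and the calls described come from it. Libraries sharing a date are read as 1 mouse, and the mouse term pairs them. Their deviations from the group means correlated at 0.296, 0.196 and 0.384 between organs. For organs of different mice these correlations were -0.301 to 0.0719. The deviations within an organ cancel out for each gene, so positive values for the same mouse push those for different mice down. This contrast is therefore partly fixed in advance. A shared animal was not tested apart from a shared date. That fit has 2 residual degrees of freedom, moderated by a prior of 18.7. limma 3.58.1 (voom) and DESeq2 1.42.0 were alternatives, with RLE scaling, other filters, other sets of libraries and single libraries left out.

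The members and gene lists were chosen with earlier results of these data known. Genes were named where they passed with at least a 2-fold change and 20 CPM in the higher group, in either fit with mouse as a block, or belong to a list; others are said to be named after their values were seen. One gene past the threshold is not reported here. Promoter bases are RefSeq's. The statistics were tested on simulated data, with planted changes larger than most of those described here and in genes of at least 20 CPM. The simulated spread was lower than that of the fit of all groups. Smaller changes were not planted.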

Additional observations from a re-analysis of the deposited data

Results flagged for a closer look

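In the 4 spleen libraries, 1 library lay far from the other 3 for 4 measures. Looked at were 53 gene values, 11 marker sums, the library total, the genes detected and the Jchain share. Chance does this in about 1 of 20 groups, so over this many measures several such flags come by chance. Nothing is read from their number. The erythroid marker sum was 476 CPM in the spleen of mouse 09-15, against at most 11.8 CPM in the others. Mt1 was highest there, at 139 CPM against at most 61.2 CPM, and Cxcr3 lowest, at 17.4 CPM against at least 44.3 CPM. The megakaryocyte and platelet marker sum was lowest in the spleen of mouse 09-01, at 2.26 CPM against at least 5.20 CPM.

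With mouse as a block over all groups, Prss34, a protease of basophils, had an organ effect that differed between YFP+ and YFP- cells by -12.32 on the log2 scale (edgeR's quasi-likelihood test, adjusted p = 0.00624). It rests on 1 YFP- marrow library, of mouse 07-26, at 2236 CPM.

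Cyp4f18 was higher in marrow in every mouse at day 5 and lower in every young mouse at day 90, with mean differences of 1.00 and -0.29 on the log2 scale. They differ by 1.29. That difference was not tested, and the groups also differ in age.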

How the results depend on the processing

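For day 5 YFP+ cells, marrow against spleen, the fit of all groups called 0 genes under every scaling, filter and left-out library, and 25 with the replicate block in the 3 paired mice (0 with the block over all groups); DESeq2 called 8. The 25 became 83 with no filter on low counts, 0 with no replicate block, 0 when the 6 YFP- libraries of these mice joined the blocked fit, and 4 to 21 with 1 mouse left out. For single genes in the paired fit, 141 values under alternatives kept their side of the threshold and 108 no longer passed, all in the same direction. Day 5 YFP- cells had 1 call, 50 with no filter, 6 with the replicate block over all groups, 20 with the block in their 6 libraries, and 0 to 1983 with 1 library left out. Day 90 YFP+ cells of 24-week mice had 2 calls, 11 with no filter, 66 with the replicate block over all groups, 56 with it in their 8 libraries, and 0 to 5 with 1 library left out. The organ difference of YFP+ against YFP- cells had 0 calls, 1 with the replicate block over all groups, and 0 to 29 with 1 library left out. That of day 5 against day 90 stayed at 0 under the alternatives run. The cause of these changes was not tested. With 3 mice the median SE of a log2 difference was 0.229 in the paired fit and 0.406 in the fit of all groups, which limits what could pass.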
